A study of Mus musculus with 4 samples.

Results

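The 9 genes described here encode components and a regulator of the complement system: the C1q subunits C1qa, C1qb and C1qc, the C1 proteases C1ra and C1s1, the central components C3 and C4b, the protease factor B (Cfb) and the C1 inhibitor Serping1. They were chosen by name, and all 9 were found among the 16416 genes of the expression table. RNA was sequenced from synovial fibroblasts grown out of mouse shoulder joint capsule that had been taken 1 week after immobilization of the joint, with the cells at passage 2. There were 4 libraries, 1 per group: wild-type cells (labelled C57BL6/J), miR-26a -/- cells without transfection, miR-26a -/- cells given 10 nM of a negative-control siRNA, and miR-26a -/- cells given 10 nM of a double-stranded miR-26a mimic, the last 2 for 24 h. Both transfected libraries thus carry the deletion as well as the transfection reagent, and the labels do not give the age of the mice or how many were used. The level of miR-26a itself was not analysed here, so the deletion was not checked. Every difference below is between single libraries and has no replicate check.

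Complement is a cascade of plasma and tissue proteins that marks targets for uptake and lysis. In the classical pathway C1q, built from the products of C1qa, C1qb and C1qc, binds its target and activates the proteases C1r and C1s, which cleave C4 and C2 to form an enzyme that cleaves C3. In the alternative pathway factor B binds C3b and is cleaved there by factor D, and its active fragment forms the corresponding enzyme with C3b. The C1 inhibitor blocks C1r and C1s. Liver makes most of the circulating components, but macrophages are known as the main source of C1q, and fibroblasts make C1r, C1s, C4 and the C1 inhibitor locally.

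Several of the genes are neighbours in the genome (RefSeq, GRCm38.p6). C1qb, C1qc and C1qa (Entrez Gene 12260, 12262 and 12259) lie in that order within 18719 bases of chromosome 4, from 136880126 to 136898844, and C1ra (50909) and C1s1 (50908) lie 6903 bases apart on chromosome 6, at 124512621 to 124523440 and 124530344 to 124542392. On chromosome 17 are C4b (12268) at 34728139 to 34743902, Cfb (14962) at 34856374 to 34862514, which ends 87 bases before C2, and C3 (12266) at 57203967 to 57228136. Serping1 (12258) is on chromosome 2 at 84765360 to 84775444.

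Sequences upstream of the start sites are shown for both neighbouring pairs with an entry in the RefSeq table, since each pair moved together and the pairs moved in opposite directions between knockout and wild type. Bases inside an annotated transcript are left out, and capitals mark motif matches on either strand.
C1qb, chr4:136886201-136886450 (minus strand): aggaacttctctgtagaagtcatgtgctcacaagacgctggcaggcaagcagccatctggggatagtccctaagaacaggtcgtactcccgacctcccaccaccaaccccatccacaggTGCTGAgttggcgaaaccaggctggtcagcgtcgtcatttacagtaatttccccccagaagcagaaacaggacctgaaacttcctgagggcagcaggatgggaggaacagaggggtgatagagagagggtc
C1qc, chr4:136892937-136893164 (minus strand): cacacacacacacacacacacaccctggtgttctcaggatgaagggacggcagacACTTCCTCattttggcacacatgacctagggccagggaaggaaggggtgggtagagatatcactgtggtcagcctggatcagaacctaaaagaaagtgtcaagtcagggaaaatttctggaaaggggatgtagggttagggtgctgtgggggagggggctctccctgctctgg
C1ra, chr6:124512371-124512620 (plus strand): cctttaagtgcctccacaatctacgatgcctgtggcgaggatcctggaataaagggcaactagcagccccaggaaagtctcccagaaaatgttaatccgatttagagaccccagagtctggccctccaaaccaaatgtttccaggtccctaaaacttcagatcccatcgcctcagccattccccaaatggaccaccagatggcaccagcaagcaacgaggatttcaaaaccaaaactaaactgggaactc
C1s1, chr6:124542393-124542609 (minus strand): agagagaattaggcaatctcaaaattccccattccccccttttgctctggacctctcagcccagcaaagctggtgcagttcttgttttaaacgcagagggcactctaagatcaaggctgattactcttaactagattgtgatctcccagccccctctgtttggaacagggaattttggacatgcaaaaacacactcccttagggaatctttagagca
Of the 9 genes 5 had an entry; C1qa, C4b, Cfb and Serping1 had none. In the 250 bases before the start, GAGGAAGT, a sequence bound by the myeloid factor PU.1, was found in C1qc, 195 to 188 bases before the start on the opposite strand, and in 2.44% of 32851 promoters. TGCTGA, a core of the Maf recognition element, was found in C1qb at 131 to 126 bases and in C3 at 182 to 177 bases before the start, and in 16.1% of promoters. The STAT motif TTCNNNGAA (7.02% of promoters), the interferon response element (2.98%) and the NF-kB consensus (0.140%) were found in none of the 5 genes. These matches describe the letters only.

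The mimic's guide strand has the sequence of mature miR-26a and shares its seed, bases 2 to 8 in capitals, with miR-26b.
Mimic guide strand: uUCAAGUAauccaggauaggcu
miR-26b-5p: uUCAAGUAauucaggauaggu
The complementary site TACTTGA was found in no 3' UTR (the untranslated stretch after the coding sequence) of the 9 genes, whose longest annotated 3' UTRs ran from 43 bases in C3 to 599 bases in C1s1. Of all 15635 genes of the table with an annotated 3' UTR (GENCODE M21, GRCm38), 1767 held the site, 11.3%. Among 40 other complement genes with a 3' UTR the site was found in 3, which are shown with their flanks because the mimic libraries bear on them.
Masp1, chr16:23469040-23469046 (minus strand): gtatggagacTACTTGAagaaagagaa
C5ar1, chr7:16247278-16247284 (minus strand): atgcatggctTACTTGAtaaatttttt
Cd93, chr2:148438661-148438667 (minus strand): gctgtcctcaTACTTGAgactggaaaa

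Levels are given as TPM, a measure scaled to transcript length and library total, so that genes can be compared. The C1q subunits dominated, with 81.0% of the summed TPM of the 9 genes in wild type, 95.4% in the untransfected knockout, 96.9% with the negative control and 96.3% with the mimic. C1qc stood at 1395.08 TPM in wild type, 2466.34 in the knockout, 2847.22 with the negative control and 2621.07 with the mimic. C1qb stood at 1438.48, 2554.59, 2515.38 and 2318.16 TPM and C1qa at 899.26, 1694.72, 1832.00 and 1690.00 TPM, in the same order. For each subunit the wild-type library was the lowest and the 3 knockout-derived libraries lay close together above it.

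The C1 proteases and their inhibitor had the opposite order. Serping1 stood at 408.62 TPM in wild type, 143.56 in the knockout, 102.37 with the negative control and 117.02 with the mimic. C1s1 had 177.69, 82.98, 58.05 and 63.62 TPM, and C1ra had 130.25, 41.54, 36.72 and 35.47 TPM, in the same order. Wild type was the highest library for all 3 genes.

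The later components were less abundant. C4b, whose product is cleaved by C1s, stood at 127.68 TPM in wild type, 31.28 in the knockout, 21.35 with the negative control and 22.26 with the mimic. Cfb had 20.65, 10.81, 4.97 and 4.85 TPM in the same order, so that both transfected libraries lay below the untransfected knockout, which lay below wild type. C3, the component on which all pathways converge, stood at only 8.62, 14.27, 8.49 and 10.27 TPM, highest in the untransfected knockout. In the wild-type library the 9 genes ranked from C1qb through C1qc, C1qa, Serping1, C1s1, C1ra, C4b and Cfb to C3, and C1ra and C4b differed little there. In the negative-control and mimic libraries C1qc stood above C1qb, and in every knockout-derived library C3 stood above Cfb.

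**Figure D1:**
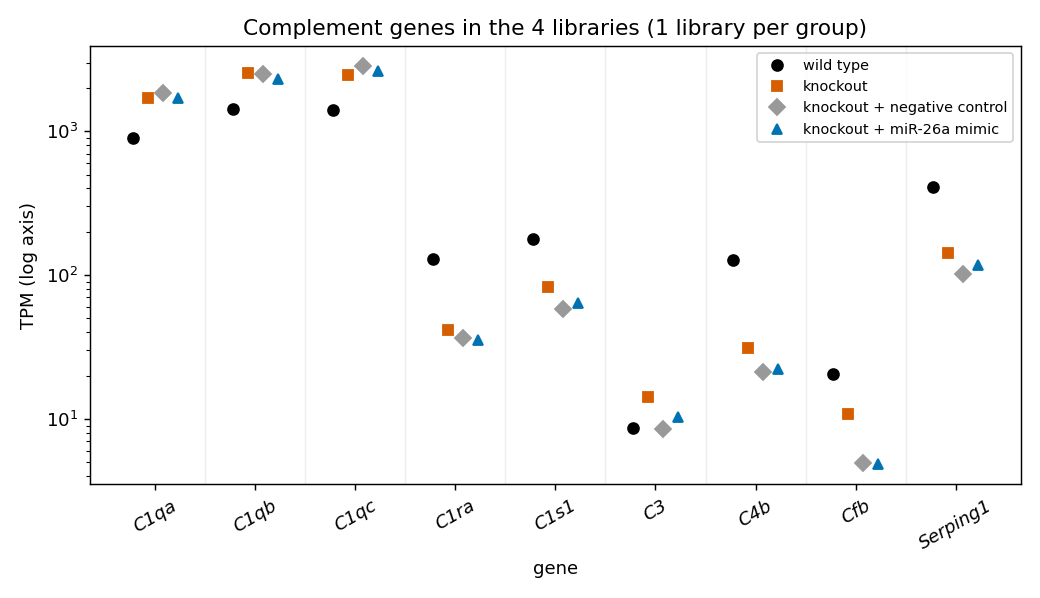
TPM on a log axis of the 9 complement genes in the 4 libraries, with 1 point per library and no replicates. The C1q subunits lie at or above 899.26 TPM in every library with wild type lowest, whereas wild type is highest for C1ra, C1s1, C4b, Cfb and Serping1.

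The comparison of knockout and wild type asked how cells from mice lacking miR-26a differ from wild-type cells. C1q subunits and C3 were higher in the knockout library, and C1ra, C1s1, C4b, Cfb and Serping1 were lower. Log2 ratios are of counts scaled with edgeR's TMM factors, and parentheses hold the exact 95% binomial interval, which covers counting error only. C1qa had a log2 ratio of 1.06 (1.01 to 1.10), C1qb of 0.97 (0.94 to 1.00) and C1qc of 0.96 (0.93 to 1.00), so that the 3 subunits moved almost alike and lay on either side of 2-fold. C3 had 668 counts in the knockout and 372 in the wild-type library, a ratio of 0.85 (0.67 to 1.04).

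C4b had the lowest ratio of the 9, at -1.90 (-1.98 to -1.82), with 1539.02 against 5793.08 counts. C1ra stood at -1.52 (-1.62 to -1.41) and C1s1, its partner in the C1 complex, at -0.97 (-1.05 to -0.89). Serping1 stood at -1.37 (-1.44 to -1.30) and Cfb at -0.82 (-1.05 to -0.60). The proteases of C1 and their inhibitor were therefore all lower where their binding partner C1q was higher.

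By the rule used here, at least 2-fold with an interval that excludes 0, C1qa was higher and C1ra, C4b and Serping1 were lower. Of all 12803 measured genes, those with at least 1 CPM (counts scaled to library total) in either library, 5.90% were higher and 7.0% lower by that rule. The median ratio of the 9 genes was -0.82, against 0.01 over all measured genes. C1qa is at the limit, and with plain total-count scaling all 3 subunits were at least 2-fold higher, whereas on deposited TPM none was, with ratios of 0.91, 0.83 and 0.82 for C1qa, C1qb and C1qc. On TPM C1s1 joined the genes at least 2-fold lower, at -1.10. TPM ratios were shifted by -0.12 for the median gene of this comparison, and relative to that shift the direction of all 9 genes was the same.

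**Figure D2:**
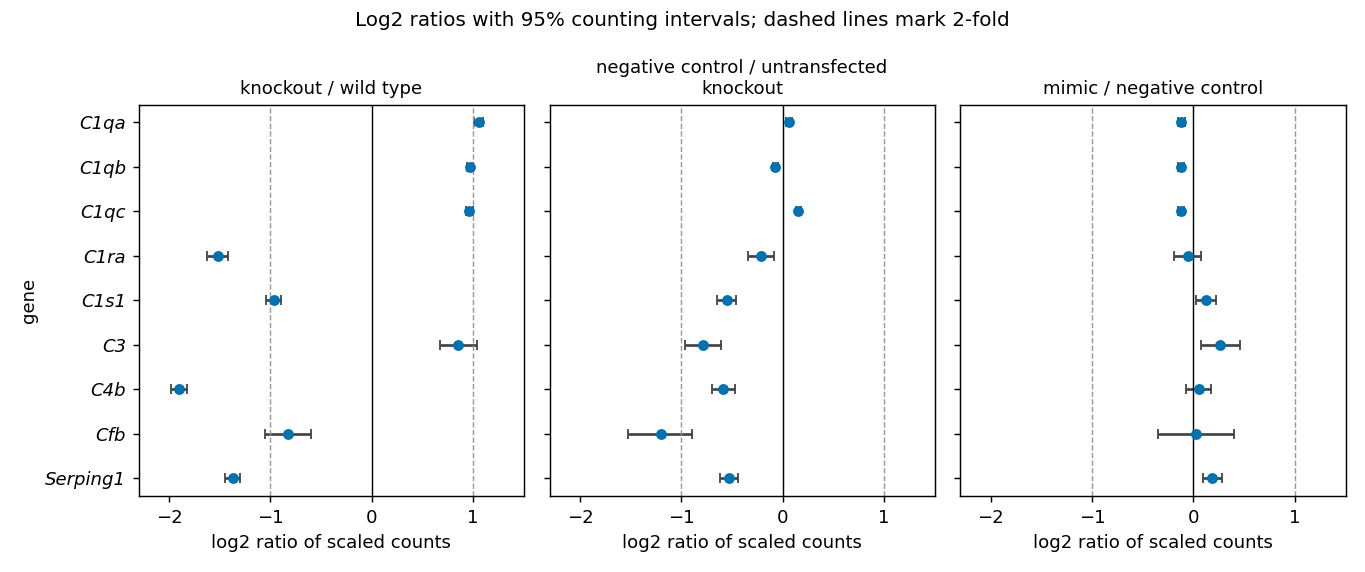
Log2 ratios of scaled counts for the 9 genes in 3 comparisons, with exact 95% counting intervals as bars and dashed lines at 2-fold; adjacent panels share a library. The knockout to wild-type ratios run from -1.90 for C4b to 1.06 for C1qa, and in the panel of mimic and negative control all lie between -0.12 and 0.26.

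Markers of other cells moved in the same comparison. Although the labels name fibroblasts, all 20 macrophage markers on the list were in the table, and their summed level was 20992 TPM in wild type and 28002 to 29640 TPM in the 3 knockout-derived libraries, with Lyz2, the lysozyme of myeloid cells, taking most of it. Of 19 measured macrophage markers 10 exceeded wild type by 2-fold or more in the knockout and none was lower, with a median log2 ratio of 1.10 and a range of 0.35 to 2.77. The abundant markers Lyz2, Tyrobp, Cd68, Fcer1g and Ctss stood at 0.49, 1.15, 0.92, 1.16 and 0.61. The scavenger receptor Cd163 was at 0 to 0.16 TPM in the 4 libraries. The C1q subunits lay in the middle of this list, each with 10 markers above it and 9 below.

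Fibroblast markers went the other way. Their summed level was 17426 TPM in wild type and 7436 to 8230 TPM in the knockout-derived libraries, no marker was at 0, and 7 of 15 were below wild type by 2-fold or more in the knockout, with a median of -0.94 and a range of -2.67 to 0.60. The abundant markers Col1a1, Col1a2, Col3a1, Thy1 and Pdgfrb stood at -0.94, -1.05, -1.58, -0.58 and -0.79. The lowered complement genes lay within that range: 3 markers were lower than C4b, 4 lower than C1ra and Serping1, 7 lower than C1s1 and 8 lower than Cfb. C3 lay above all 15 fibroblast markers. In bulk RNA fewer cells of a type and less RNA per cell cannot be told apart, and the part of cell composition in these ratios was not tested. Summed markers of neutrophils, lymphocytes, dendritic cells and mast cells reached at most 2.42 TPM, and those of endothelial cells at most 10.6 TPM, in any library.

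**Figure D3:**
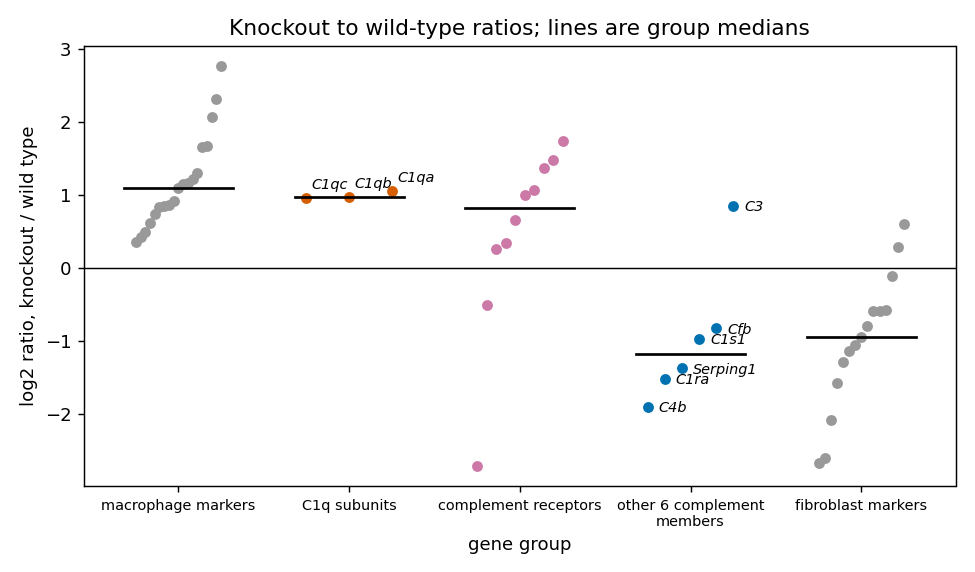
Knockout to wild-type log2 ratios of single genes (points) by group, with medians as lines; the complement receptors are those of the list described below. The C1q subunits lie at 0.96 to 1.06 within the range of the macrophage markers, and C4b, C1ra, Serping1, C1s1 and Cfb lie between -1.90 and -0.82 within that of the fibroblast markers, while C3 stands at 0.85.

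The levels were also set against these marker lists within each library. C1qc amounted to 6.65% of the summed macrophage TPM in wild type and to 8.32%, 10.2% and 9.18% in the knockout, negative-control and mimic libraries. In the list's geometric mean Lyz2 weighs no more than any other marker. Against that mean the log2 change of C1qc from wild type was -0.11, 0.05 and -0.12 in the same order. The direction in the knockout and mimic libraries thus depended on how the list was summed. The geometric mean includes Cd163, at 0.14 TPM in wild type and 0.02 with the negative control, and was not computed without it. Serping1 amounted to 2.35% of the summed fibroblast TPM in wild type and to 1.88%, 1.38% and 1.42% in the others. For C4b the shares were 0.733%, 0.410%, 0.287% and 0.270%, log2 changes from wild type of -0.84, -1.35 and -1.44, and by the geometric mean of -0.90, -1.16 and -1.28. C1s1 in the untransfected knockout stayed near its wild-type share, at 1.09% against 1.02%, but was at 0.781% and 0.773% in the transfected libraries. The log2 changes of C1ra from wild type were -0.46, -0.60 and -0.79, and by the geometric mean -0.52, -0.41 and -0.63. Those of Serping1 by the geometric mean were -0.38, -0.58 and -0.56. C4b, C1ra and Serping1 were thus lower relative to the fibroblast markers in all 3 knockout-derived libraries under both sums. C1s1 and Cfb were not lower in the untransfected knockout, where Cfb stood at 0.26 and, by the geometric mean, at 0.20.

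The other complement genes were described from a list of 49, of which 41 were in the table and 24 were measured in this comparison. By the 2-fold rule 5 were higher in the knockout and 4 lower, with a median of 0.43. Of all measured genes 5.90% were higher and 7.0% lower, with a median of 0.01. Receptors made up most of the 5 higher complement genes. Itgam, a subunit of complement receptor 3, stood at 1.75 (1.67 to 1.82), its partner Itgb2 at 1.07 (1.01 to 1.13), the anaphylatoxin receptor C5ar1 at 1.37 (1.29 to 1.45) and Cd93, first described as a C1q receptor, at 1.48 (1.42 to 1.54). The receptor for C3a, C3ar1, had 127.58 TPM in wild type and 232.85 in the knockout, a ratio of 1.00 (0.95 to 1.05) just short of 2-fold, and Itgax had 0.66 (0.51 to 0.81). Vsig4, a receptor that binds C3 fragments, was lower and had 32 counts in wild type against 4 in the knockout, with a ratio of -2.71 (-4.95 to -1.49). C1qbp and Calr, proteins that bind C1q but serve other functions inside the cell, stood at 0.34 (0.23 to 0.46) and 0.26 (0.24 to 0.29).

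Among soluble components Cfd, the protease factor D that is also known as an adipocyte product, was counted 154 times in wild type and 1 time in each knockout-derived library, with a knockout ratio of -6.27 (-12.57 to -4.76). Properdin (Cfp), which stabilizes the alternative convertase, was higher at 0.52 (0.39 to 0.64), and C2, the neighbour of Cfb, at 0.51 (0.18 to 0.85). Hc, the gene for C5, had 33 against 16 counts, a ratio of 1.01 (0.15 to 2.02). In the lectin pathway the protease gene Masp1 stood at 0.53 (0.43 to 0.64), the collectin Colec12 at -0.89 (-0.96 to -0.83) and the ficolin Fcna at -0.23 (-0.58 to 0.11). Members of the same pathway thus did not share a direction.

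Regulators on the cell surface and in the fluid phase also went both ways. Cd55, which speeds decay of the convertases, was at 15.38 TPM in wild type and 6.5 in the knockout, a ratio of -1.10 (-1.38 to -0.85), and clusterin (Clu), an inhibitor of the terminal complex, had 114 against 15 counts and a ratio of -2.84 (-3.80 to -2.13). Cd59a, which blocks the terminal complex, stood at 0.54 (0.32 to 0.78). Cr1l, a membrane regulator of C3 convertases in rodents, had 0.01 (-0.12 to 0.14).

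Regulators of complement transcription and inducing cytokines were described from a list of 18, of which 15 were measured. Tnf, at 1.56 (1.21 to 1.94), and the cytokine oncostatin M (Osm), at 1.04 (0.38 to 1.78), exceeded 2-fold, both being higher in the knockout. None of the 12 transcription factors reached 2-fold. By the 2-fold rule 5.90% of all measured genes were higher and 7.0% lower, so few calls would be found among so few genes. The myeloid factors Spi1, which encodes PU.1, and Irf8 stood at 0.96 (0.85 to 1.07) and 1.00 (0.87 to 1.13).

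Setting the other knockout-derived libraries against wild type, a comparison added after the values were seen, gave C4b ratios of -2.48 (-2.58 to -2.39) with the negative control and -2.43 (-2.53 to -2.34) with the mimic. Those of Cfb were -2.02 (-2.33 to -1.74) and -2.00 (-2.31 to -1.71), and those of Serping1 -1.90 (-1.98 to -1.82) and -1.71 (-1.79 to -1.64). With the negative control C1qa and C1qc were 2-fold higher than wild type and C1ra, C1s1, C4b, Cfb and Serping1 2-fold lower, against 5.84% and 8.11% of 12782 measured genes. With the mimic the same 5 were 2-fold lower and none of the 9 was higher, C1qa and C1qc both lying just short of 2-fold at a log2 ratio of 1.00, against 7.69% and 5.82% of 12793. C1ra, C4b and Serping1 were at least 2-fold lower than wild type in each of the 3 libraries, as were 5.22% of 12876 genes, and none of the 9 genes was 2-fold higher in all 3, as were 4.32%. C1qa, C1qb, C1qc and C3 were above wild type in all 3 libraries by any amount and the other 5 below it; of all genes 40.3% were above in all 3 and 37.8% below. All of these ratios share the 1 wild-type library. C3 was 0.07 (-0.13 to 0.28) with the negative control, an interval that includes 0, and on TPM it was on the other side of wild type there, at -0.02.

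The comparison of negative control and untransfected knockout shows what accompanied transfection in cells of 1 genotype. Cfb was at least 2-fold lower after transfection, with 124 against 255 counts and a log2 ratio of -1.20 (-1.53 to -0.89). By the same rule 0.718% of 12532 measured genes were lower, and 0.295% higher. C3 stood at -0.78 (-0.96 to -0.61), C4b at -0.58 (-0.70 to -0.47), C1s1 at -0.55 (-0.65 to -0.46), Serping1 at -0.53 (-0.62 to -0.44) and C1ra at -0.21 (-0.34 to -0.09). Each of these 6 genes was also below the untransfected knockout in the mimic library, at -1.17 (-1.51 to -0.86) for Cfb and -0.52 (-0.69 to -0.35) for C3. Of the 9 genes 7 were lower in both transfected libraries than in the untransfected one, and of all genes 31.3% were. Both comparisons share the single untransfected knockout library, so they are not independent of each other.

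All 15 fibroblast markers were below 0 in this comparison, with a median of -0.15 and 2 at least 2-fold lower, and Cfb lay below every one of them. The median of 19 macrophage markers was 0.02. Of 19 other measured complement genes none reached 2-fold, with a median of -0.09. Cd55 stood at -0.51 (-0.85 to -0.18) and Colec12 at -0.45 (-0.53 to -0.37). Hc, with few counts, had the largest ratio at 0.73, and Cfp stood at 0.28 (0.17 to 0.38).

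C1q subunits differed from one another in the same comparison, although each by little. C1qc was higher with the negative control, at 0.16 (0.13 to 0.18), and C1qa at 0.06 (0.03 to 0.10), whereas C1qb was lower at -0.07 (-0.10 to -0.04). The ratio of C1qb to C1qc TPM was 1.03 in wild type and 1.04 in the untransfected knockout, and 0.883 and 0.884 in the negative-control and mimic libraries. The ratio of C1qa to C1qc was 0.645, 0.687, 0.643 and 0.645 in the order wild type, knockout, negative control and mimic. The subunits were therefore not in exactly 1 proportion in all libraries. Without replicates it cannot be told whether the shift of C1qb exceeds the spread between cultures. The ratio of C1ra to C1s1 was 0.733, 0.501, 0.633 and 0.558 in that order.

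**Figure D4:**
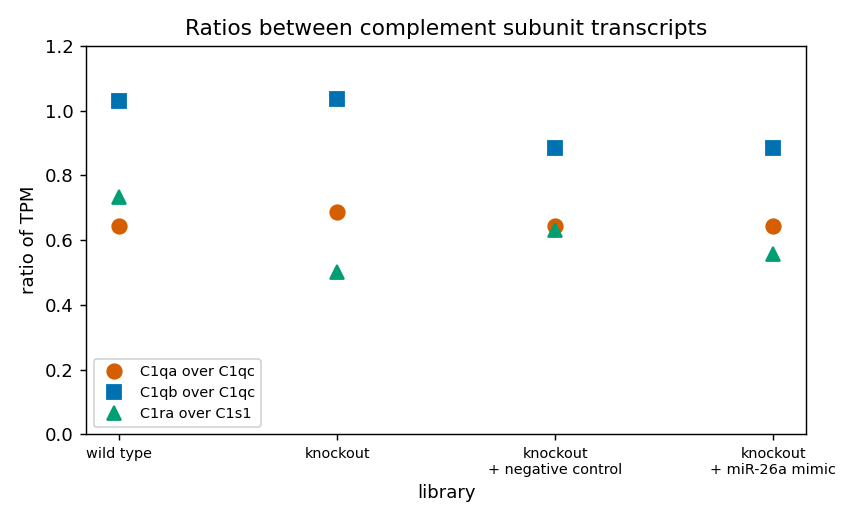
Ratios of TPM between subunit transcripts in the 4 libraries, 1 point per library. C1qb over C1qc is 1.03 and 1.04 in the untransfected and 0.883 and 0.884 in the transfected libraries, and C1qa over C1qc lies between 0.643 and 0.687.

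The comparison of mimic and negative control asked how miR-26a -/- cells given the mimic differ from those given the control siRNA. None of the 9 genes reached 2-fold, as against 0.855% of 12512 measured genes that were higher and 0.352% that were lower. The C1q subunits were at -0.12 (-0.15 to -0.09) for C1qa, -0.12 (-0.15 to -0.09) for C1qb and -0.12 (-0.15 to -0.09) for C1qc. C3 stood at 0.26 (0.08 to 0.46), Serping1 at 0.19 (0.09 to 0.28) and C1s1 at 0.12 (0.02 to 0.22). The intervals of C1ra, at -0.06 (-0.19 to 0.08), C4b, at 0.05 (-0.07 to 0.17), and Cfb, at 0.02 (-0.35 to 0.40), include 0, and the sign of Cfb turns to -0.03 on TPM and to -0.01 with total-count scaling. Fibroblast markers had a median of 0.11 with 10 of 15 above 0, and macrophage markers one of 0.02.

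Against the untransfected knockout, which shares the mimic library with the previous comparison, Cfb was the only one of the 9 at least 2-fold lower, as were 0.471% of 12536 measured genes, and none was higher, as were 0.263%. C4b stood at -0.53 (-0.65 to -0.42), C1s1 at -0.43 (-0.52 to -0.33), Serping1 at -0.34 (-0.43 to -0.25) and C1ra at -0.27 (-0.41 to -0.14). The C1q subunits were at -0.06 (-0.09 to -0.02) for C1qa, -0.19 (-0.22 to -0.16) for C1qb and 0.03 (0.01 to 0.06) for C1qc. The difference between knockout and wild type was not smaller in the mimic library for any of the 5 lowered genes: C1s1 stood at -1.40 (-1.48 to -1.31) and C1ra at -1.79 (-1.90 to -1.68) to wild type with the mimic. Of the 4 raised genes C3, C1qb and C1qa lay closer to wild type with the mimic than in the untransfected knockout, at 0.34 (0.14 to 0.54), 0.78 (0.74 to 0.81) and 1.00 (0.96 to 1.04), and C1qc did not, at 1.00 (0.96 to 1.03). C3 and C1qb were closer to wild type with the negative control as well, at 0.07 (-0.13 to 0.28) and 0.90 (0.86 to 0.93).

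The 3 complement genes with a TACTTGA site, printed above, had small mimic ratios. Masp1, whose site is followed by A, stood at -0.17 (-0.27 to -0.07) against the negative control and -0.33 (-0.43 to -0.23) against the untransfected knockout. Cd93 stood at -0.30 (-0.34 to -0.26) and -0.15 (-0.19 to -0.11), and C5ar1 at 0.08 (0.03 to 0.13) and 0.27 (0.21 to 0.33), in the same order. Masp1 and Cd93 were thus lower and C5ar1 higher with either reference. Genes without the site had similar ratios to the negative control, with C2 at -0.16 and each C1q subunit at -0.12. Of the 19 other measured complement genes, these 3 included, 12 were below 0 and 7 above it. Masp1 was already at -0.16 in the negative-control library against the untransfected knockout. Of 19 other measured complement genes none reached 2-fold against the negative control, and the largest ratios were those of Cd55, at 0.51 (0.18 to 0.84), and Cr1l, at 0.50 (0.38 to 0.63).

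The genes closest to 4 of the members across the 4 libraries were found by the distance between centred log2 TPM values among 10199 genes with a mean of at least 5 TPM. With 4 points each this is a description. Closest to C1qc were Camk1d, Akap12 and Nfatc2, at distances of 0.03 to 0.04. Akap12 had 65.49, 119.37, 137.17 and 122.93 TPM in wild type, knockout, negative control and mimic. Closest to C4b were Gas1, Igsf10 and Ism1, at 0.10 to 0.16, and Gas1 had 373.53, 89.53, 59.73 and 59.22 TPM. Closest to Serping1 were Tle2, Col14a1 and Dnm1, at 0.10 to 0.12, and closest to C3 were Gjb5, Cda and Tspan18, at 0.10 to 0.17. None of these 12 was on the list of other complement genes described above.

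Related copies limit what can be said of 3 genes. C1ra shares 48.0% and C1s1 24.3% of its 50-base stretches with the copies C1rb and C1s2. C4b has the related gene C4a, for which this share was not computed. The authors' counts gave the copies at most 0.623% of the reads of each pair in any library, but counts with decimals for C1ra, C1s1 and C4b show that some reads were divided, so their levels are uncertain to that extent. Cfb and C2 lie 87 bases apart, and whether counting used strand is not given in the sources used here.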

How the data were processed

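RNA sequencing of 4 libraries, 1 per group, was analysed from the tables the authors deposited. FastQC, HISAT and Bowtie2 and the builds GRCm38.p6 and mm10 are named in the submitters' processing notes; the sources used here name no quantifier or annotation. The authors deposited read counts per gene, per the file headers, taken here as estimated counts not scaled by library size since their totals differ, with 4.99% to 5.28% of values holding decimals. They were rounded for intervals only. The deposited TPM were used for levels between genes. The authors deposited log2 ratios, which equal the unscaled ratio of counts between knockout and wild type to within 4.07e-08 for genes with at least 10 counts in both libraries, and these were not used for results. Total counts were 18198033 (wild type), 17598763 (knockout), 19392655 (negative control) and 18584404 (mimic).

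Counts were scaled with TMM (edgeR 4.0.16; R 4.3.3), a prior of 1 count was added, and exact conditional binomial (Clopper-Pearson) 95% intervals were computed with scipy 1.17.1. Reads are not independent molecules, so intervals cover counting error only. Calls and intervals were tested on simulated data drawn from a Poisson distribution, which holds counting error only. Such data have no spread between cultures, so they cannot show whether a call would repeat. Of the identifiers, 16369 were found in RefSeq, and 26 symbols turned into dates were restored. Ratios of the transfected libraries to wild type were added after the values were seen. Alternatives were DESeq2 1.42.0 size factors, total counts, TPM ratios (pseudocount 0.1), other priors, filters and folds, and a geometric mean over marker lists. The genes and lists were chosen with earlier results of these data known. Named are all members, other complement genes at 5 TPM or called, the 5 most abundant macrophage and fibroblast markers, called inducers, further list genes chosen after their values were seen (Cd163, Spi1, Irf8), and the 3 genes closest to each of 4 members. Some genes that this rule names are not reported here.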

Additional observations from a re-analysis of the deposited data

How the results depend on the processing

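With 1 library per group none could be left out, and no paired analysis was possible because each group has a single library. The 36 log2 ratios of the 9 genes in 4 comparisons kept their direction under DESeq2 size factors, total counts, deposited TPM and a prior of 5 counts, except Cfb between mimic and negative control, which was 0.02 and became -0.03 on TPM and -0.01 with total counts. For knockout against wild type, 3 of the 9 genes were called higher with total counts, 0 on TPM and 4 at 1.5-fold. Of all 12803 measured genes 807, 590 and 1445 were called higher under the same settings. On TPM 4 of the 9 were called lower, C1s1 being added at -1.10, and at 1.5-fold 5 were, against 1033 and 1689 of all measured genes. For negative control against knockout, 2 of the 9 were called lower at 1.5-fold, against 339 of 12532 measured genes.

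Counts over all genes depended on the thresholds. At 1.5-fold the genes called higher and lower were 1445 and 1689 for knockout against wild type, 123 and 339 for negative control against knockout, 359 and 210 for mimic against negative control, and 141 and 224 for mimic against knockout. At 5 CPM they were 5 and 33, 43 and 10, and 3 and 9 in the last 3 comparisons, and 556 were lower in the first. Without a filter 74 and 136 were called for negative control against knockout, 69 and 90 for mimic against knockout, and 82 lower for mimic against negative control. With a prior of 5 counts 19 were higher for negative control against knockout, and 27 and 32 lower for mimic against negative control and against knockout. Depth limits Cfb and C3 most, with 118 to 668 counts.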
